A study of Rattus norvegicus with 8 samples.

Results

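The peroxiredoxins, the thioredoxins and the enzymes that act beside them were followed in rat H9c2 cells cultured in orbit on the International Space Station or in a ground control, with or without nanoceria. The 10 genes were chosen by name (Prdx1 to Prdx6, Txn1, Txn2, Txnrd2 and Glrx), all 10 were found among the 15037 distinct gene symbols on the array, and each had 1 probe set. H9c2 is a single myoblast line derived from embryonic rat heart. Nanoceria are cerium oxide nanoparticles, which are studied as scavengers of reactive oxygen species, and were coated with serum and given at 100 µg/ml. The 8 arrays comprised 2 of nanoceria-treated cells in space (replicates 1 and 2), 1 of space cells left untreated, 3 of treated ground cells (replicates 1 to 3) and 2 of untreated cells on the ground (replicates 1 and 3). All cultures were seeded at 35000 cells per square centimetre on plastic coverslips in flight-type culture units, in a low-serum differentiation medium that contained sodium selenite, and were fixed in RNAlater on day 10. The units travelled in a pouch warmed to 27 °C and went into a 37 °C incubator on day 7. This temperature course, recorded during the flight, was played back to the ground cultures afterwards, and their units were activated by hand, those in space automatically, so the regime cannot be told apart from the culture run. The labels do not tie each array to a culture unit of its own, so p-values measure only the spread between these samples.

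Cells remove hydrogen peroxide and organic peroxides through a relay of thiol proteins. A peroxiredoxin reduces the peroxide with a reactive cysteine, thioredoxin reduces the peroxiredoxin, and thioredoxin reductase, a selenoprotein, reduces thioredoxin with electrons from NADPH. The relay exists in parallel in the cytosol and in mitochondria, and muscle cells depend on both because contraction and respiration generate peroxide. Glutaredoxin is a related thiol protein that draws its electrons from glutathione and removes glutathione from modified proteins.

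The standard deviation (SD) of log2 intensity over all arrays had a median of 0.18 for the 10 genes, against 0.25 for all named genes. Txn1 and Prdx1 were the steadiest, with SDs of 0.092 and 0.10, and 3.73% and 5.11% of named genes had a smaller SD. On every array both lay above 11.0, the 95th percentile of log2 intensity over all probe sets. SDs were not compared at like intensity, so the part of brightness in them was not tested. Txn2, Prdx4 and Glrx varied most, with SDs of 0.37, 0.37 and 0.34. No gene of the family passed an adjusted p of 0.05 in any of the 7 comparisons fitted with limma (0 of 10 each time), and 0.00% of the 23188 probe sets passed in each of them.

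The 8 arrays themselves differed in ways that touch these results. Pearson's r between arrays, taken over probe sets that are not independent of each other, was 0.991 to 0.992 among the space arrays and 0.959 to 0.985 among the ground arrays. Ground nanoceria replicate 1 held the highest value of 8 of the 10 family genes, against 16.3% of all probe sets, with a median deviation of 0.38 from the mean of the other 7 arrays for the family and -0.018 for all probe sets. Space nanoceria replicate 1 held the lowest value of 4 of the 10, against 8.02% of all probe sets. Its median deviation was -0.16 for the family and -0.015 for all probe sets. Ground untreated replicate 3 had the lowest mean of the myoblast markers measured (10 of 11 listed), 7.40 in log2 intensity, against 8.11 to 9.09 on the other 7 arrays. The 3 ground nanoceria arrays had the highest means, at 8.79, 8.60 and 9.09, and space untreated replicate 1 followed at 8.53. Of these markers, Myog lay at 6.25 to 9.89 and Tnnt2 at 9.18 to 11.43, both lowest on ground untreated replicate 3, and Myf5 at 4.01 to 4.75. Acta1, Tnni1, Chrna1 and Vim lay higher on the 3 ground nanoceria arrays than on all others. Their lowest values there were 10.27, 7.92, 5.58 and 13.86, and their highest elsewhere 9.64, 7.32, 5.28 and 13.82. Des, Myog, Myod1, Myf5, Actc1 and Tnnt2 overlapped. Single markers were picked out after the values were seen. The mean over the markers of other cells was 5.31 to 5.93 for cardiomyocytes (3 of 4 measured), 4.82 to 5.19 for endothelium (4 of 4), 4.99 to 5.23 for macrophages (4 of 4) and 9.85 to 10.55 for fibroblasts (3 of 4). The fibroblast markers were unlike each other, with Pdgfra at 5.17 to 5.92, Thy1 at 9.91 to 11.60 and Col1a1 at 14.10 to 14.24. Means of different lists cannot be ranked against each other. Among the macrophage markers Cd68 lay at 7.11 to 7.74, highest on ground untreated replicate 3. The mean of the 4 macrophage markers was instead highest on ground untreated replicate 1, at 5.23 against 5.14 on replicate 3. No detection measure says which of these probe sets lie above background, so whether such cells were present was not tested. In bulk samples fewer cells of a type and less RNA per cell cannot be told apart. The tallies of highest and lowest values by array were made after the values were seen. The part of these array differences in the results below was not tested, and values without an array are given where they move a statement.

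**Figure D1:**
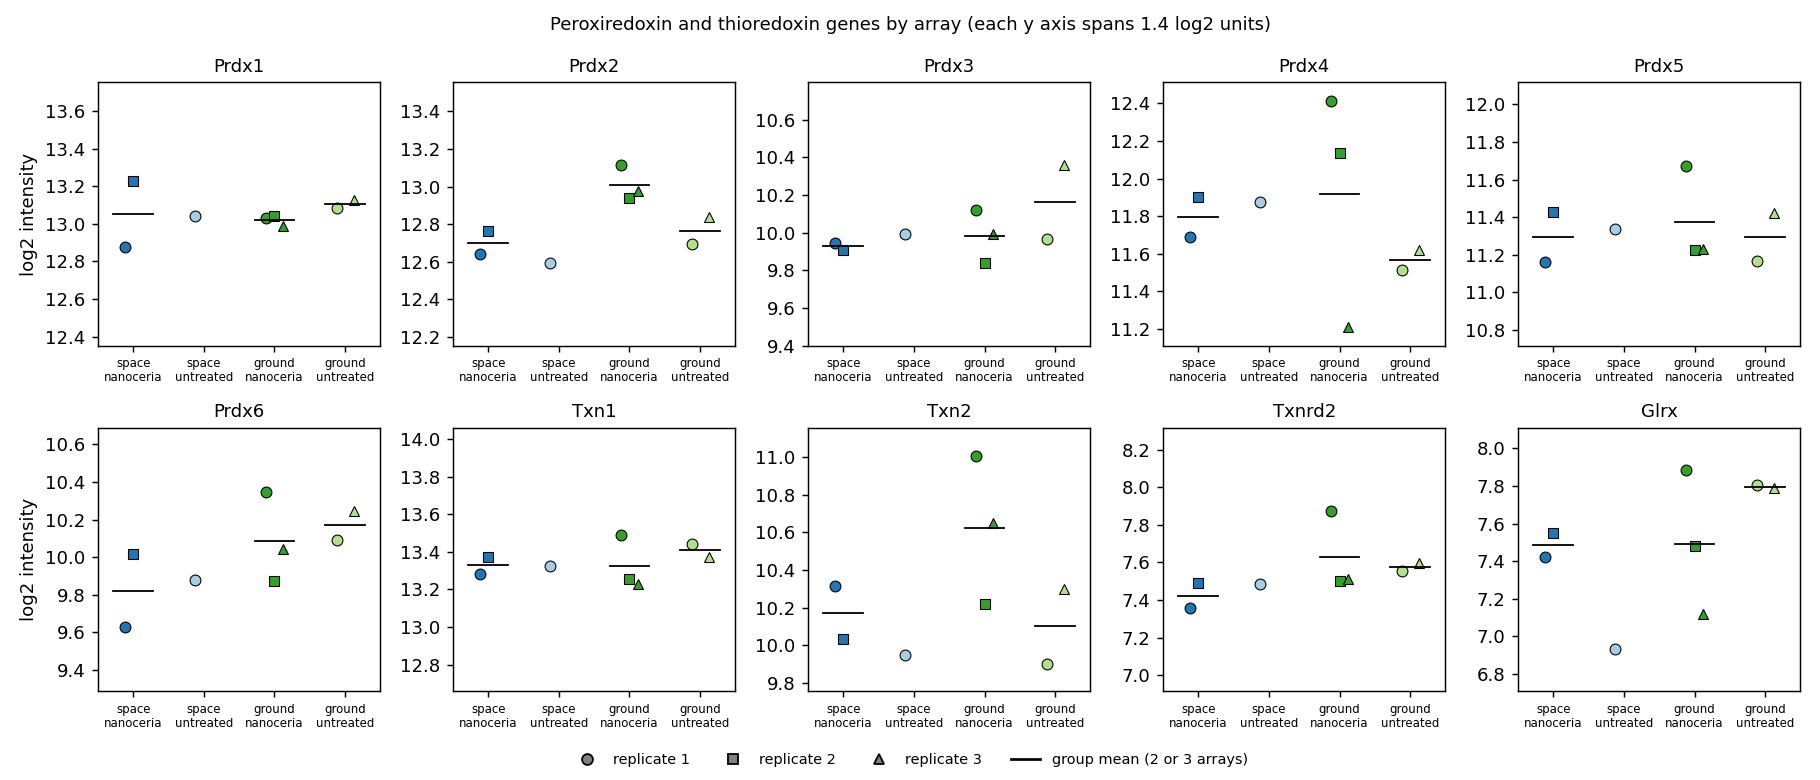
Log2 intensity (y axis) of the 10 peroxiredoxin and thioredoxin genes in nanoceria-treated and untreated cells in space and on the ground (x axis), with 1 symbol per array and a bar for each group mean of 2 or 3 arrays. Ground nanoceria replicate 1 (dark green circle) is the highest array for 8 of the 10 genes, and Prdx1 and Txn1 span the narrowest ranges.

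Prdx1, the most studied cytosolic peroxiredoxin and in mouse and human cells a target of NRF2, which switches on antioxidant genes, lay at nearly the same level everywhere. Its log2 intensity was 12.88 and 13.23 in nanoceria-treated cells in space, 13.04 in untreated cells in space, 13.03, 13.04 and 12.99 in nanoceria-treated cells on the ground, and 13.08 and 13.13 in untreated cells on the ground. Both the highest and the lowest array were from nanoceria-treated cells in space, so the 2 replicates of that group spanned every other array. Space minus ground was -0.0015 ± 0.12 (SE) on the log2 scale, with a 95% interval of -0.28 to 0.27. Nanoceria minus untreated over both regimes was -0.051 ± 0.12, with an interval of -0.33 to 0.22. On the ground the 3 treated arrays lay below both untreated arrays, by -0.084 ± 0.16 on average (adjusted p = 0.878).

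The upstream sequence of Prdx1 is shown because it holds the letters of the antioxidant response element core that NRF2 recognises, and that of Txnrd1, the cytosolic thioredoxin reductase, because it holds the same core and its gene varied more across the arrays. Both windows and the core searched were chosen after the values were seen. Both windows are from the RefSeq promoter table (build GRCr8), run 5′ to 3′ along the gene's strand and lie upstream of the start site used there. Capitals mark the core, TGACNNNGC, which in both lies on the opposite strand and so reads GCNNNGTCA.
Prdx1: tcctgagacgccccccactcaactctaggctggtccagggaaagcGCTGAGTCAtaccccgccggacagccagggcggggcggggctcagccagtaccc
Txnrd1: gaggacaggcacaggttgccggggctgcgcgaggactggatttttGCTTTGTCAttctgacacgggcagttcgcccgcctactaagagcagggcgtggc
The Prdx1 window is chr5:135383726-135383824 on the plus strand, with the core 135 to 127 bases before the start site, where it overlaps the letters TGAGTCA that AP-1 factors recognise. The Txnrd1 window is chr7:22755929-22756027 on the minus strand, with the core 78 to 70 bases before the start site of 1 of the 2 promoters listed for the gene. This window lies inside the annotated span of the gene (chr7:22717620-22802553) and not at its 5′ end. The core was found on either strand of the 250 upstream bases in 1 of 9 family genes with a promoter in the table (Prdx6 has no entry), in 5 of 24 other measured genes of the thioredoxin system, and in 11.0% of all 27457 genes. A match describes these letters and does not show that a factor binds there.

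Prdx2, a cytosolic peroxiredoxin that is abundant in red cells and works at low peroxide, had the smallest p of the family by regime. Its log2 intensity was 12.64 and 12.76 in nanoceria-treated cells in space, 12.59 in untreated cells in space, 13.12, 12.94 and 12.97 in nanoceria-treated cells on the ground, and 12.70 and 12.84 in untreated cells on the ground. Treated ground cells were highest, and did not overlap untreated ground cells, which overlapped treated cells in space. The untreated space array was lowest, below the range of treated cells in space, but has no spread of its own. Space minus ground was -0.26 ± 0.11 over both treatments (interval -0.52 to 0.00070, 0.835-fold, adjusted p = 0.524). Within treated cells it was -0.31 ± 0.15 (adjusted p = 0.646) with no overlap between the 2 space and 3 ground arrays. Such a gap was found in that comparison for 2 of 10 family genes, Prdx2 and Txnrd2, against 31.2% of all probe sets. Within untreated cells the regime difference was -0.18 ± 0.20, with -0.11 without ground untreated replicate 3. Nanoceria minus untreated was 0.20 ± 0.11 over both regimes, 0.24 ± 0.15 on the ground and 0.11 ± 0.20 in space, and none of these passed. Without ground nanoceria replicate 1 the regime difference was -0.22 (adjusted p = 0.646).

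Prdx6 differs from the rest of the family in using glutathione rather than thioredoxin and in also acting on phospholipids. It lay at 9.63 and 10.02 in nanoceria-treated cells in space, 9.88 in untreated cells in space, 10.35, 9.87 and 10.04 in nanoceria-treated cells on the ground, and 10.09 and 10.25 in untreated cells on the ground. Untreated and treated ground cells had the higher means and space cells the lower, but every pair of neighbouring groups overlapped. The regime difference was -0.27 ± 0.15 (interval -0.62 to 0.074, adjusted p = 0.599), with -0.17 without space nanoceria replicate 1, and the nanoceria difference was -0.073 ± 0.15.

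The mitochondrial branch comprises Txn2, its reductase Txnrd2 and the peroxiredoxins Prdx3 and Prdx5, the last of which is also found in peroxisomes and the cytosol. Txn2 had the same SD over the 8 arrays as Prdx4 at 2 decimals, and a smaller range. It lay at 10.31 and 10.03 in nanoceria-treated cells in space and 9.95 in untreated cells in space. On the ground it lay at 11.01, 10.22 and 10.65 in treated cells, against 9.90 and 10.30 in untreated cells. The treated ground mean was the highest of the 4 groups, but its lowest array lay below ground untreated replicate 3. Nanoceria minus untreated was 0.42 ± 0.20 over both regimes (interval -0.041 to 0.88, 1.34-fold, adjusted p = 0.549) and 0.52 ± 0.26 on the ground (adjusted p = 0.506). Without ground nanoceria replicate 1 these were 0.29 (adjusted p = 0.698) and 0.33 (adjusted p = 0.685), and without ground untreated replicate 1 they were 0.28 (adjusted p = 0.756) and 0.32 (adjusted p = 0.776). Space minus ground was -0.35 ± 0.20 over both treatments (adjusted p = 0.613) and -0.22 (adjusted p = 0.726) without ground nanoceria replicate 1. Within treated cells it was -0.45 ± 0.26 (adjusted p = 0.675), and -0.26 without the same array.

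Txnrd2, which passes electrons from NADPH to Txn2, was the only gene of the family whose 3 space arrays did not overlap the 5 ground arrays. It lay at 7.35 and 7.49 in nanoceria-treated cells in space and 7.49 in untreated cells in space, all below the 7.87, 7.50 and 7.51 of treated and the 7.55 and 7.59 of untreated ground cells. The gap between the highest space array and the lowest ground array was small beside the spread within groups, and the difference was -0.16 ± 0.13 (interval -0.46 to 0.13, adjusted p = 0.713), with -0.086 without ground nanoceria replicate 1. That is 1 of 10 genes without overlap, where 5.11% of all probe sets had none in this comparison. Nanoceria minus untreated was 0.012 ± 0.13.

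Prdx3, the peroxiredoxin confined to mitochondria, lay at 9.95 and 9.91 in nanoceria-treated cells in space, 10.00 in untreated cells in space, 10.12, 9.84 and 9.99 in treated ground cells, and 9.97 and 10.36 in untreated ground cells. Neighbouring groups overlapped throughout, and the one array that stood off was ground untreated replicate 3. The regime difference was -0.096 ± 0.14 and the nanoceria difference -0.14 ± 0.14 (adjusted p = 0.841 and 0.759). Without ground untreated replicate 3 they were -0.031 and -0.022, and without ground untreated replicate 1 they were -0.15 and -0.23. Prdx5 lay at 11.16 and 11.43 in nanoceria-treated cells in space, 11.34 in untreated cells in space, 11.67, 11.22 and 11.23 in treated ground cells, and 11.17 and 11.42 in untreated ground cells. Its groups overlapped too, with differences of -0.036 ± 0.15 by regime and 0.037 ± 0.15 by treatment (adjusted p = 0.957 and 0.949).

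Prdx4 is the peroxiredoxin of the endoplasmic reticulum, where it turns peroxide from oxidative protein folding into disulphide bonds. Its log2 intensity was 11.69 and 11.90 in nanoceria-treated cells in space and 11.87 in untreated cells in space. In nanoceria-treated cells on the ground it was 12.41, 12.13 and 11.21, against 11.51 and 11.62 in untreated ground cells. The 3 treated ground arrays thus included both the highest values of the series and the lowest, and their SD of 0.63 (n = 3) exceeded that of any other family gene in any group. Nanoceria minus untreated on the ground was 0.35 ± 0.33 (interval -0.43 to 1.14, adjusted p = 0.733). It was 0.71 ± 0.18 (adjusted p = 0.325) without ground nanoceria replicate 3 and 0.11 ± 0.31 (adjusted p = 0.927) without ground nanoceria replicate 1. The regime difference over both treatments was 0.032 ± 0.26, the only positive one of the family, and it was -0.16 without ground nanoceria replicate 3 and 0.20 without ground nanoceria replicate 1.

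Txn1, the cytosolic thioredoxin that serves Prdx1 and Prdx2 and also reduces ribonucleotide reductase, was the steadiest gene of the family. It lay at 13.28 and 13.37 in nanoceria-treated cells in space, 13.33 in untreated cells in space, 13.49, 13.25 and 13.23 in treated ground cells, and 13.44 and 13.37 in untreated ground cells. Its whole range was 0.26 on the log2 scale. The regime difference was -0.026 ± 0.12 (interval -0.29 to 0.24) and the nanoceria difference -0.054 ± 0.12 (interval -0.32 to 0.21).

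Glrx, the cytosolic glutaredoxin, was the one family gene with an unadjusted p below 0.05 in any of the 7 comparisons as first fitted, and Prdx2, Prdx4 and Txn2 also had one under some alternatives. It lay at 7.42 and 7.55 in nanoceria-treated cells in space and at 6.93 in untreated cells in space, the lowest array of all. On the ground it lay at 7.88, 7.48 and 7.12 in treated cells, against 7.80 and 7.79 in untreated cells. In untreated cells, space minus ground was -0.87 ± 0.31 (interval -1.59 to -0.14, 0.549-fold), which limma with Benjamini-Hochberg adjustment did not pass (adjusted p = 0.9999). That is 1 of 10 family genes, where 3.14% of all probe sets had an unadjusted p below 0.05, and the space side was a single array. Its unadjusted p stayed below 0.05 in 11 of 13 alternatives, all but those without ground untreated replicate 1 or 3. That count is partly fixed by the design, because leaving out a nanoceria array removes nothing from this contrast and kept the difference at -0.87. The difference was -0.86 without ground untreated replicate 1 and -0.87 without replicate 3. Without the single space array it could not be fitted. In treated cells the regime difference was -0.0071 ± 0.23. Nanoceria minus untreated was 0.56 ± 0.31 in space and -0.30 ± 0.23 on the ground, opposite in sign, with -0.50 on the ground without ground nanoceria replicate 1 and -0.12 without ground nanoceria replicate 3. The interaction of 0.86 ± 0.39 did not pass (interval -0.047 to 1.76, adjusted p = 0.9999). Over both treatments the regime difference was -0.31 ± 0.22 (adjusted p = 0.672), and without the single untreated space array it was -0.0071. Over both regimes the nanoceria difference was 0.0038 ± 0.22, with -0.30 without that array. These 2 values repeat those in treated cells and on the ground by design, because no untreated space cells are then left.

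**Figure D2:**
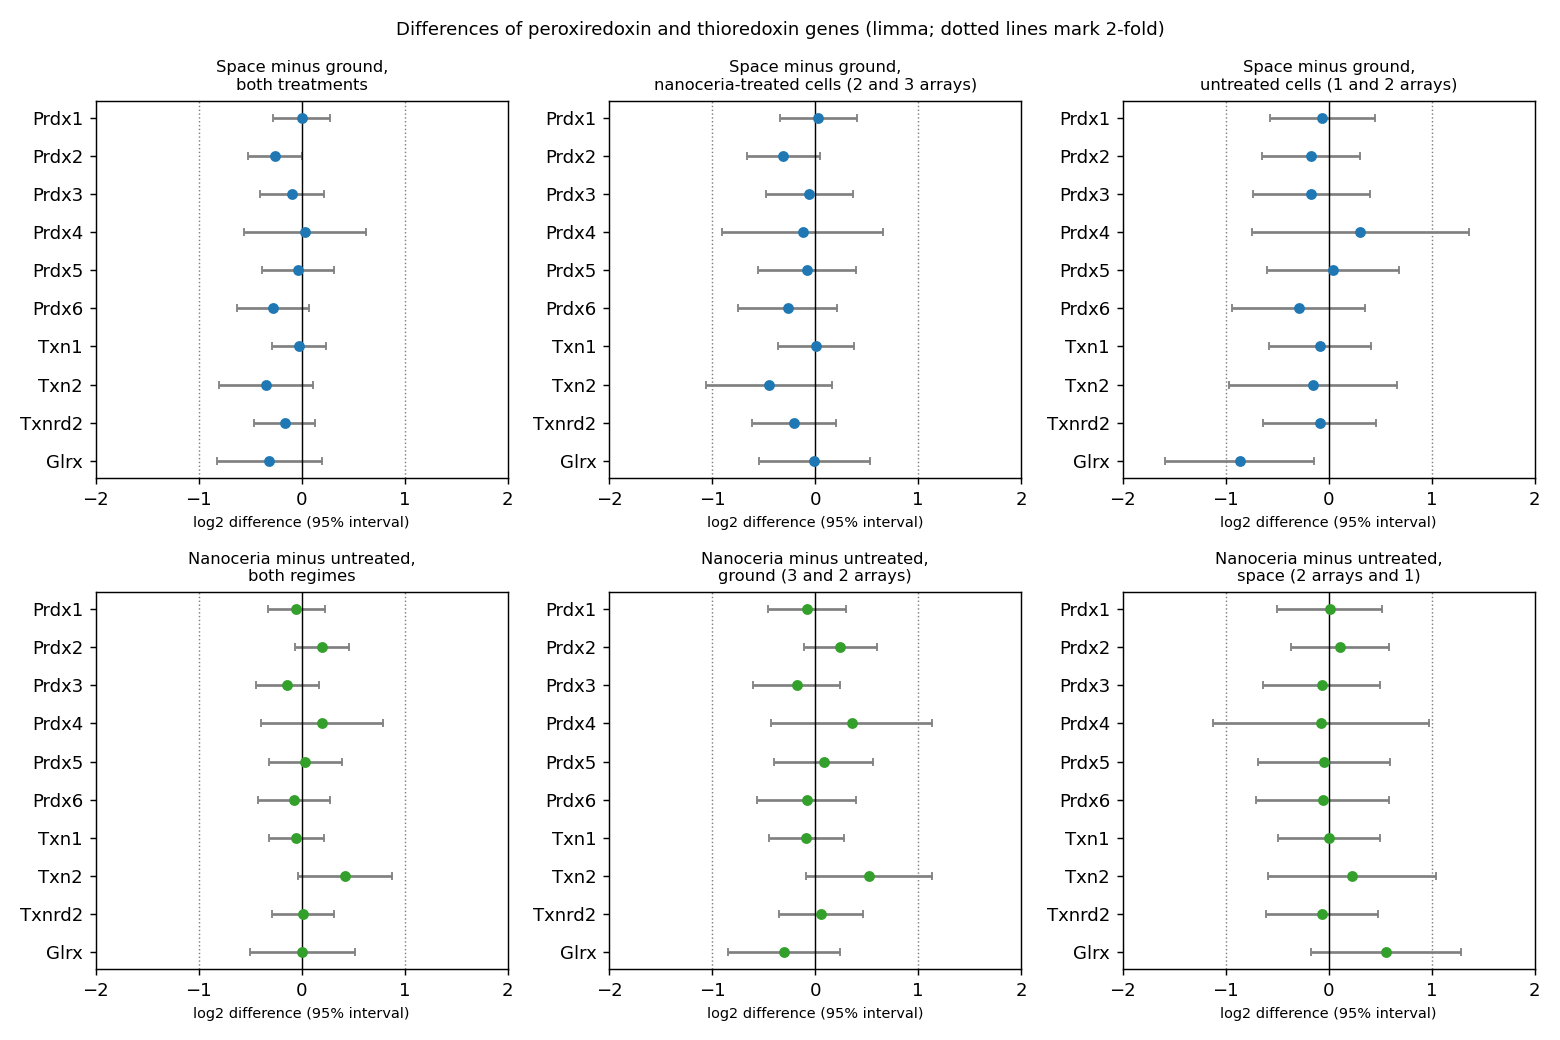
Log2 difference (x axis, point) with its 95% interval (bar) for each gene (y axis) in 6 limma comparisons, with space minus ground in the upper row and nanoceria minus untreated in the lower. Intervals cross 0 for every gene in every panel except Glrx in untreated cells (-1.59 to -0.14), and dotted lines mark 2-fold.

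Space minus ground was negative for 9 of the 10 genes, none of which passed the test, with a median of -0.13, while 41.3% of all probe sets were positive and their median was -0.044. The values ran from -0.35 for Txn2 to 0.032 for Prdx4, and 0 of 10 genes had an unadjusted p below 0.05 in limma, against 9.56% of all probe sets. In 7 of 14 alternatives 1 of 10 genes had one, Prdx2 in 5 of them and Txn2 and Glrx in 1 each. The 95% interval lay within 2-fold for 10 of 10 genes and within 1.5-fold for 6 (all but Prdx4, Prdx6, Txn2 and Glrx), against 88.8% and 54.9% of all probe sets. The 2 fold limits were chosen after the values were seen. Leaving out ground nanoceria replicate 1 gave 7 of 10 lower and a median of -0.073, against -0.047 for all probe sets. In treated cells alone 2 of 10 genes were higher and 8 lower with a median of -0.10, while 41.4% of all probe sets were higher and their median was -0.051. Without that array 6 of 10 were higher in treated cells with a median of 0.025, against -0.052 for all probe sets. In untreated cells 2 of 10 were higher and 8 lower with a median of -0.12, while 45.5% of all probe sets were higher. In treated cells 0 of 10 genes had an unadjusted p below 0.05, against 8.41% of all probe sets.

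Nanoceria was set against no treatment because of its use as an antioxidant, and genes of the family lay on both sides of 0. Over both regimes 6 of 10 genes were higher and 4 lower, with a median of 0.0079. Of all probe sets 56.0% were higher, and their median was 0.033. The extremes were Txn2 at 0.42 and Prdx3 at -0.14, the second of which was -0.022 without ground untreated replicate 3. Without ground nanoceria replicate 1, 3 of 10 were higher and 7 lower, with a median of -0.062, against 0.034 for all probe sets. With limma, 0 of 10 genes had an unadjusted p below 0.05, against 9.63% of all probe sets (1 of 10, Txn2, in 2 of 14 alternatives), and 0 of 10 had treated and untreated arrays that did not overlap, against 4.74%. The 95% interval lay within 2-fold for 10 of 10 genes, and within 1.5-fold for 8 (all but Prdx4 and Txn2), against 88.5% and 55.1% of all probe sets. On the ground 5 genes were higher and 5 lower (median -0.013), 0 of 10 had an unadjusted p below 0.05 against 11.0%, and 2 of 10 had groups that did not overlap, Prdx2 higher and Prdx1 lower, against 26.3%. Of all probe sets 55.5% were higher on the ground, with a median of 0.038. Leaving out ground nanoceria replicate 1, 3 of 10 genes were higher on the ground and the median was -0.079, against 0.044 for all probe sets. In space, with 2 treated arrays against 1, 5 were higher and 5 lower (median -0.020), and 0 of 10 had an unadjusted p below 0.05 against 1.47%. Of all probe sets 51.9% were higher with nanoceria in space, with a median of 0.0082. Without space nanoceria replicate 1, 9 of 10 genes were higher there (median 0.088, against 0.0045 for all probe sets). Without space nanoceria replicate 2, 3 of 10 were higher (median -0.090, against 0.010). The interaction of regime and treatment had 0 of 10 below an unadjusted p of 0.05 in limma against 2.35%. Its interval lay within 1.5-fold for 0 of 10 genes, against 0.496% of all probe sets.

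Of the genes that act directly on the family, Txnrd1, Srxn1 and Txnip stood apart on a different array. Txnrd1 reduces Txn1 in the cytosol. It lay at 9.72 and 10.43 in nanoceria-treated cells in space, 10.35 in untreated cells in space, 10.36, 10.36 and 9.97 in treated ground cells, and 9.70 and 11.07 in untreated ground cells. The highest value, on ground untreated replicate 3, was 0.94 above the mean of the other 7 arrays, and the lowest was the other untreated ground array. Srxn1, sulfiredoxin, which repairs overoxidised peroxiredoxins, lay at 10.05 and 10.25 in nanoceria-treated cells in space, 9.94 in untreated cells in space, 10.27, 10.32 and 10.43 in treated ground cells, and 10.17 and 11.51 in untreated ground cells. It too was highest on ground untreated replicate 3, by 1.31. On that array the 10 family genes deviated by -0.20 (Prdx4) to 0.39 (Prdx3), with Prdx1 at 0.084. Their median deviation was 0.070, against -0.041 for all probe sets.

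Txnip binds thioredoxin and blocks its active site, and it is also induced by glucose. It lay at 11.45 and 12.02 in nanoceria-treated cells in space, 12.19 in untreated cells in space, 11.56, 12.34 and 11.31 in treated ground cells, and 11.16 and 9.64 in untreated ground cells. Ground untreated replicate 3 was the lowest, with a deviation of -2.08 from the mean of the other 7 arrays, and both untreated ground arrays lay below all others. Nanoceria minus untreated on the ground was 1.34 ± 0.48 (adjusted p = 0.391), with 0.58 ± 0.43 (adjusted p = 0.612) without ground untreated replicate 3 and 2.10 ± 0.43 (adjusted p = 0.0989) without ground untreated replicate 1. Space minus ground in untreated cells was 1.80 ± 0.65 (adjusted p = 0.9999), with 1.04 ± 0.52 without ground untreated replicate 3 and 2.56 ± 0.52 (adjusted p = 0.215) without ground untreated replicate 1. Over both treatments the regime difference of Txnip was 0.64 ± 0.47, beside -0.44 ± 0.29 for Srxn1 and -0.12 ± 0.30 for Txnrd1. Without ground untreated replicate 3 these were 0.30, -0.20 and 0.077, and without the untreated space array Txnip was at -0.0063 and Srxn1 at -0.19. By design the last 2 values are those of treated cells alone. The nanoceria difference over both regimes was 0.70 ± 0.47 for Txnip, -0.24 ± 0.29 for Srxn1 and -0.20 ± 0.30 for Txnrd1. For Txnip, Srxn1 and Txnrd1 it was 0.091, 0.19 and 0.15 without ground untreated replicate 3, and 0.90, -0.52 and -0.57 without ground untreated replicate 1. On the ground alone Srxn1 was at -0.50 ± 0.35, at 0.17 without replicate 3 of the untreated cells and at -1.17 ± 0.19 (adjusted p = 0.0640) without their replicate 1. Txnrd1 was at -0.15 ± 0.41 there, and at 0.53 and -0.83 in the same order of left-out arrays. In treated cells, space minus ground was -0.16 for Txnrd1, -0.19 for Srxn1 and -0.0063 for Txnip. In space, nanoceria minus untreated was -0.27 for Txnrd1, 0.22 for Srxn1 and -0.46 for Txnip. In untreated cells, space minus ground was -0.040 for Txnrd1 and -0.90 ± 0.47 for Srxn1. Without ground untreated replicate 3 these were 0.64 and -0.23, and without ground untreated replicate 1 they were -0.72 and -1.57. The interaction was -1.80 ± 0.81 for Txnip, 0.71 ± 0.59 for Srxn1 and -0.12 ± 0.68 for Txnrd1, and none passed (adjusted p = 0.9999 for each). Without ground untreated replicate 3 these were -1.04, 0.041 and -0.80, and without ground untreated replicate 1 they were -2.56, 1.39 and 0.56.

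**Figure D3:**
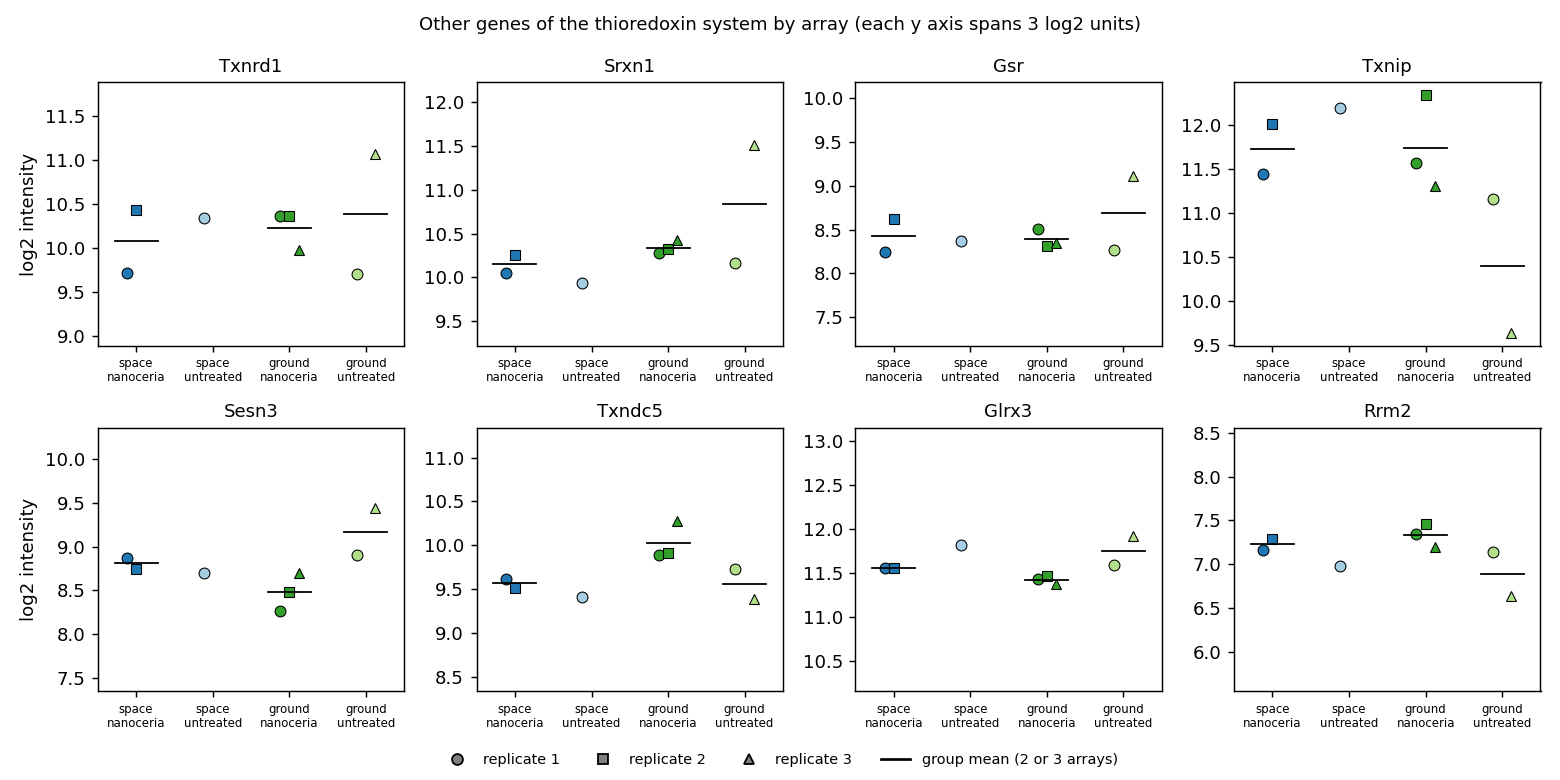
Log2 intensity (y axis) of 8 other thioredoxin system genes by group (x axis), with 1 symbol per array and a bar for each group mean of 2 or 3 arrays. Ground untreated replicate 3 (pale green triangle) is highest for Txnrd1, Srxn1, Gsr, Sesn3 and Glrx3 and lowest for Txnip, Txndc5 and Rrm2. Gsr, glutathione reductase, was added and the 8 genes were picked after the values were seen. Over the whole list of 30 this array was highest for 11 and lowest for 6, against 12.9% and 16.5% of all probe sets.

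A wider list of 38 thioredoxin-related genes, of which 30 were measured, gave no gene with an adjusted p below 0.05 in any of the 7 limma comparisons. By regime 14 were higher and 16 lower in space (median -0.047), with an unadjusted p below 0.05 for 1 of 30. Of all probe sets 41.3% were higher and 9.56% had such a p. This was Txndc5, an endoplasmic reticulum protein with thioredoxin domains, at -0.35 ± 0.15 (adjusted p = 0.520), and at -0.46 ± 0.19 within treated cells. Next by p were Txnrd3 at -0.27 ± 0.12, a reductase best known from testis, and the methionine sulphoxide reductase gene Msrb1 at -0.30 ± 0.18. With nanoceria over both regimes 15 were higher and 15 lower, with 2 and 1 below an unadjusted p of 0.05, while 56.0% of all probe sets were higher and 9.63% had such a p. They were Rrm2, the small subunit of ribonucleotide reductase, at 0.37 ± 0.15, Txndc5 at 0.36 ± 0.15 and Glrx3, a glutaredoxin of iron-sulphur cluster handling, at -0.31 ± 0.12 (adjusted p = 0.482, 0.509 and 0.479), followed by Txndc17 at -0.38 ± 0.17. Without ground untreated replicate 3, Rrm2 was at 0.22, Txndc5 at 0.23 and Glrx3 at -0.21. Leaving out replicate 1 of that group instead gave 0.48, 0.41 and -0.39. On the ground 14 were higher and 16 lower, with 2 below that p in each direction, while 55.5% of all probe sets were higher and 11.0% were below it. Besides Txnip and Txndc5 (0.47 ± 0.19) these were Sesn3, a sestrin, at -0.69 ± 0.21 (adjusted p = 0.334) and Txndc17 at -0.52 ± 0.22 (adjusted p = 0.449). Without ground untreated replicate 3, Sesn3 was at -0.43 and Txndc5 at 0.30, and without replicate 1 of the same group they were at -0.96 and 0.64. In space 18 were higher and 12 lower with nanoceria, none with an unadjusted p below 0.05 (51.9% higher and 1.47% below it over all probe sets), and the smallest p belonged to Txndc2 (0.27), Glrx3 (-0.26), Txnrd3 (0.26) and Txndc8 (0.48). Txndc8 was dim, at 3.66 to 4.69 beside a 5th percentile of 3.95 over all probe sets. Its difference in space was -0.022 without space nanoceria replicate 1. In treated cells 12 were higher and 18 lower in space, 1 of them below that p (41.4% and 8.41% of all probe sets), and after Txndc5 the smallest p belonged to Msrb1 (-0.38), Sesn3 (0.33) and Txnrd3 (-0.24). In untreated cells 12 were also higher and 18 lower, 1 of them below it (45.5% and 3.14% of all probe sets), and after Txnip and Srxn1 the smallest p belonged to Txndc2 (-0.38) and Sesn3 (-0.47). The interaction was positive for 16 and negative for 14, none below it (48.7% positive and 2.35% below it over all probe sets), with the smallest p for Sesn3 (0.80 ± 0.36) and Txnip, followed by Txndc2 (0.37) and Txndc8 (0.64). That of Txndc8 was 0.14 without space nanoceria replicate 1.

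The genes whose profiles over the 8 arrays were most like those of the 2 members with the largest SD were also listed. For Txn2 they were Flot1 (Pearson's r 0.986), Pafah1b3 (0.985) and Selenom (0.985). For Prdx4 they were Cd74 (0.978), Mpped1 (0.955) and Tmem138 (0.952). These are the highest of 15036 genes over the same 8 arrays, so a high r is reached by selection, and both members had their highest value on ground nanoceria replicate 1.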

How the data were processed

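Each sample gave 30 ng of total RNA for 1 rat Clariom S array (Pico assay). The values the authors deposited are an intensity for each probe set on each array, and the submitters' processing notes name RMA. Its software, version and settings are not given in the sources used here. These deposited values were linear and all above 0, with array medians of 107 to 117, and no pseudocount was added before log2. No detection measure was used, so whether a dim probe set lies above background is unknown. Levels of different probe sets are not set against each other, apart from the percentiles given beside Txn1, Prdx1 and Txndc8.

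The 23188 probe sets (15049 with a symbol) were all fitted on the log2 scale using limma 3.58.1 under R 4.3.3, and p-values were adjusted by Benjamini-Hochberg at 0.05. The fit with regime and treatment as additive terms had 5 residual degrees of freedom, and a fit with 1 mean per group, used for the 5 other comparisons, had 4. For the single untreated space array, the spread of the other groups was assumed. Errors are standard errors (SE) unless marked SD, and the number of arrays limits the precision. The fits were tested on simulated data.

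The members and the gene lists were chosen with earlier results of these data known. In every comparison all 10 members were named, and of 30 other measured genes the up to 4 with the smallest p, with Txnrd1, Txnip and Srxn1 always. Items outside this rule are marked as chosen after the values were seen. Alternatives were cyclic loess, equal medians of the arrays, only the brightest 66.7% of probe sets, a variance trend, array weights, the replicate number as a block and leaving out each array. Same-numbered samples did not deviate together (r from -0.35 to -0.013 over 5 pairs), so the numbers were not taken as pairs. Ground untreated replicate 2 is not analysed here.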

Additional observations from a re-analysis of the deposited data

How the results depend on the processing

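The 10 family genes gave 70 differences over 7 comparisons and 950 values under the alternatives. None of these passed an adjusted p of 0.05 in limma (smallest 0.323, Prdx2 by regime with array weights), and 71 of them, in 31 of the 70 differences, had the opposite sign; the largest of those 31 differences was 0.18 in size. Of 593 values for the other named genes 19 had the opposite sign and none passed (smallest adjusted p = 0.0640, Srxn1 with nanoceria on the ground without ground untreated replicate 1). With an unadjusted p below 0.05, at most 1 of the 10 genes appeared in any alternative. This held in 7 of 14 alternatives by regime, 2 of 14 by nanoceria, 4 of 14 for nanoceria on the ground, 1 of 13 for nanoceria in space, 3 of 14 by regime in treated cells, 11 of 13 in untreated cells and 3 of 13 for the interaction. The genes were Prdx2, Prdx4, Txn2 and Glrx. In a contrast of group means, leaving out an array of another group could move only the error, not the difference. The number of probe sets that passed by regime was 0, against 1 with a variance trend, 4 with array weights and 0 to 1 when each array was left out. Leaving out arrays gave 0 to 167 for nanoceria on the ground and 0 to 6 for regime in untreated cells, with both highest counts without ground untreated replicate 1. Without the untreated space array, nanoceria in space, regime in untreated cells and the interaction could not be fitted. The additive regime and nanoceria differences then equalled those in treated cells and on the ground by design. With equal medians 50.8% of probe sets with an unadjusted p below 0.05 were higher with nanoceria on the ground, against 40.3% as deposited, and for the interaction 47.7% were positive, against 61.5%. The cause was not tested.

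Signs turned as follows. By regime, Prdx1 was 0.0059 with cyclic loess and 0.0058 with array weights, and Prdx4 was -0.054 with array weights. With the replicate block Prdx4 was -0.20 and Txnrd1 0.021. By nanoceria, Prdx5 was -0.019 with cyclic loess and -0.010 with array weights, Txnrd2 was -0.027 with array weights, and Glrx was -0.033 with the replicate block. On the ground Prdx5 was -0.00024 with cyclic loess. In space Prdx1 was -0.080 with the replicate block, and Txn1 was -1.35e-05 with cyclic loess and -0.0028 with equal medians. By regime in treated cells, Prdx1 was -0.00051 and Txn1 -0.026 with equal medians, Glrx was 0.0094 and Txnip 0.042 with cyclic loess, and Prdx3 was 0.0099, Txn1 -0.027 and Srxn1 0.010 with the replicate block. In untreated cells Txnrd1 was 0.22 with the replicate block. For the interaction Prdx6 was -0.023 with equal medians. No value passed with the replicate block.

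Leaving out each array turned signs within these ranges. By regime they were -0.10 to 0.080 for Prdx1, -0.16 to 0.20 for Prdx4, -0.093 to 0.058 for Prdx5, -0.060 to 0.020 for Txn1, -0.32 to 0.087 for Txnrd1 and -0.0063 to 0.99 for Txnip. By nanoceria they were -0.058 to 0.090 for Prdx5, -0.066 to 0.055 for Txnrd2, -0.30 to 0.15 for Glrx, -0.57 to 0.15 for Txnrd1 and -0.52 to 0.19 for Srxn1. On the ground they were -0.38 to 0.019 for Prdx3, -0.067 to 0.21 for Prdx5, -0.21 to 0.026 for Prdx6, -0.067 to 0.12 for Txnrd2, -0.83 to 0.53 for Txnrd1 and -1.17 to 0.17 for Srxn1. In space they were -0.16 to 0.18 for Prdx1, -0.18 to 0.029 for Prdx4, -0.18 to 0.090 for Prdx5, -0.25 to 0.14 for Prdx6, -0.041 to 0.048 for Txn1, -0.13 to 0.0022 for Txnrd2, -0.022 to 0.98 for Txndc8 and -0.63 to 0.085 for Txnrd1. By regime in treated cells they were -0.14 to 0.21 for Prdx1, -0.13 to 0.012 for Prdx3, -0.47 to 0.12 for Prdx4, -0.21 to 0.068 for Prdx5, -0.042 to 0.089 for Txn1, -0.19 to 0.19 for Glrx, -0.51 to 0.20 for Txnrd1 and -0.29 to 0.29 for Txnip. In untreated cells they were -0.37 to 0.030 for Prdx3, -0.084 to 0.17 for Prdx5, -0.35 to 0.046 for Txn2 and -0.72 to 0.64 for Txnrd1. For the interaction they were -0.080 to 0.27 for Prdx1, -0.087 to 0.31 for Prdx3, -0.26 to 0.023 for Prdx5, -0.17 to 0.22 for Prdx6, -0.19 to 0.0028 for Txnrd2 and -0.80 to 0.56 for Txnrd1.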
